A study of Mus musculus with 24 samples.

Results

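The genes described here belong to the fibroblast growth factor (FGF) and hepatocyte growth factor (HGF) pathways, which act on muscle satellite cells (SCs). They are genes of growth factors, their receptors, a carrier and an inhibitor. They were taken from a deposited table of raw read counts as the rows whose gene symbol is Fgf1, Fgf2, Fgf6, Fgf7, Hgf, Met, Fgfr1, Fgfr4, Fgfbp1 or Spry1. All 10 were found, among 24537 genes, and all 24 libraries were used. Mice carrying Acta1-Cre (Acta1-Cre+/4Fhet, "Cre+") were compared with mice lacking it (Acta1-Cre-/4Fhet, "Cre-") at an age of 2 months. Mice of both genotypes carried 1 copy of a cassette for Oct4, Sox2, Klf4 and c-Myc (OSKM) under a tetracycline-responsive promoter and 1 copy of a Cre-dependent rtTA activator with GFP, and all were given doxycycline (Dox) in the drinking water at 1 mg/ml. Muscles were taken after 2.5 days, after 5.5 days and after 8.5 days. Cre is driven by the skeletal actin promoter, so the activator is released in myofibers and not by design in SCs or other resident cells. RNA came from whole extensor digitorum longus (EDL, mostly fast-twitch) and soleus (SOL, mostly slow-twitch) muscles, with 2 libraries for each muscle, genotype and day. The study describes these as independent biological samples.

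FGFs are secreted proteins that bind heparan sulphate on cell surfaces and in the basal lamina and signal through receptor tyrosine kinases. The receptors act through adaptor proteins on the RAS-ERK cascade, which raises the transcription of its own inhibitors, the Sprouty proteins among them. HGF is stored in the muscle matrix in an inactive form, is cleaved on injury and binds the receptor MET, and it is known for bringing quiescent SCs towards the cell cycle. In SCs, FGFR1 and FGFR4 are the receptors usually described, and Sprouty1 is known for the return of cycling SCs to quiescence. The RNA here was from whole muscle, so these genes were measured in myofibers, SCs, vessels, connective tissue cells and nerve together. In such a sample, fewer cells of one type and less RNA per cell cannot be told apart.

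Library totals lay between 36088781 and 54679082 counts, and 3 counts, the limit that a count of 0 allows for counting error only, were worth 0.0549 to 0.0831 CPM. Pou5f1 (Oct4), a cassette gene, had 0 to 5 counts in the 12 Cre- libraries. It had 1129 and 4206 counts in the Cre+ EDL libraries of 2.5 days, 5439 and 3683 at 8.5 days, and 64 and 1686 at 5.5 days. In Cre+ SOL muscles the counts were 313 and 531 at 2.5 days, 857 and 414 at 8.5 days, and 4 and 22 at 5.5 days. Of the other cassette genes, Sox2 was called higher in Cre+ SOL muscles at 2.5 and 8.5 days, but Klf4 (log2 fold changes 0.08 and -0.04) and Myc (2.18 and 2.37, edgeR adjusted p = 0.0971 and 0.056) were not, while all 4 were called in EDL muscles on both days. The study removed samples without OSKM overexpression and describes the RNA of 2.5 and 8.5 days, and the 5.5-day libraries are given apart here, although replicate 2 of the Cre+ EDL muscles had more Pou5f1 counts than replicate 1 of 2.5 days. The slow fibre markers, checked against the muscle labels, summed to 100.5 to 1026 FPKM in EDL and 20050 to 34038 FPKM in SOL libraries, without overlap. The SC markers Pax7 and Calcr were detected in all 24 libraries. Of the markers that define the other cell types examined, only the neutrophil gene Ly6g was near absent, with 0 counts in 21 libraries.

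Sequences around the start sites are shown for the 3 members that changed in EDL muscles after 2.5 days of Dox, as the stretch from which each transcript begins. They are RefSeq promoter windows of GRCm38.p6, from 250 bases before to 50 bases after the annotated start. The windows are chr6:127015292-127015591 for Fgf6, chr13:55152568-55152867 for Fgfr4 and chr3:37639697-37639996 for Spry1, all on the plus strand and read 5′ to 3′. Capitals mark a match to one of 4 motifs searched on both strands, which are CACGTG (the E-box of Myc and its partners), CACCC (a core of Klf sites), ATGCAAAT (the octamer) and CATTGT (a core of Sox sites).
Fgf6: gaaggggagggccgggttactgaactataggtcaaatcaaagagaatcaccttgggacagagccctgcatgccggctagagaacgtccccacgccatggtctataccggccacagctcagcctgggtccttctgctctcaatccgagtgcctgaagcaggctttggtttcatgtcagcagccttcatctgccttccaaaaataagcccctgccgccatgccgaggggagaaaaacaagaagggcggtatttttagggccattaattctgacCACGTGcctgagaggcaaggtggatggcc
Fgfr4: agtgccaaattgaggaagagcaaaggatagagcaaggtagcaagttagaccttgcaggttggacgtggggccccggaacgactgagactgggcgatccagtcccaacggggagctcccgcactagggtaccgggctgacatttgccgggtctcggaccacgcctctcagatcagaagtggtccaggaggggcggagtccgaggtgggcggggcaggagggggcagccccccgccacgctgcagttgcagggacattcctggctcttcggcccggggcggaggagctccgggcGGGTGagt
Spry1: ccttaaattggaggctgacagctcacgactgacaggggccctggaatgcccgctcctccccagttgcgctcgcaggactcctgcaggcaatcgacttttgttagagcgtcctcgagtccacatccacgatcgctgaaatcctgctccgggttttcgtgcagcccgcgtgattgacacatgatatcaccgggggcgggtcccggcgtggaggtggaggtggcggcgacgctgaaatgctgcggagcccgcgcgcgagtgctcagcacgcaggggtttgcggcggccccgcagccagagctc

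The Fgf6 window held 1 CACGTG, 22 bases after the start, and the Fgfr4 window held CACCC on the opposite strand, written there as GGGTG, 43 bases after the start. The Spry1 window held none of the 4 motifs. Of 32851 windows of this length, 7.15% held CACGTG, 57.5% CACCC, 1.74% ATGCAAAT and 12.6% CATTGT. The Met window also held a CACGTG, and CACCC was found in the windows of Met, Fgf2, Hgf and Fgfbp1, while the octamer and the Sox core were in none of the 8 members with a window. Hgf has more than 1 window, and its CACCC lay only in the window of another start than that of the counted gene. The windows of Fgf6, Fgfr4 and Spry1 had GC contents of 55%, 65.3% and 64.3%, beside a median of 52.7% over all windows.

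The levels of the members, compared per length of exon as FPKM over all 24 libraries, fell into an abundant group, a middle group and a gene near the limit of detection. Fgfr1 (chr8:25518759-25575718), a receptor of SCs and of many other cells, had the highest mean at 24.1 ± 5.22 FPKM (SD, n = 24). Fgf1 (chr18:38838673-38918699), an FGF without a signal peptide that binds all FGF receptors, followed with 20.9 ± 8.33 FPKM. In SOL muscles the mean of Fgf1 was above that of Fgfr1, at 29.6 against 26.2 FPKM in Cre- and 27.8 against 27.2 FPKM in Cre+ mice. Spry1 (chr3:37639947-37644599) had 13.8 ± 2.36 FPKM. Each of these genes lay between the 83.97 and 89.83 percentiles of all genes by mean level.

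The middle group lay much lower. Fgfr4 (chr13:55152818-55168759) had 2.89 ± 1.13 FPKM, and Fgf7 (chr2:126034658-126091185), a ligand made mainly by connective tissue cells, had 2.85 ± 1.53 FPKM. Met (chr6:17463957-17573980), the HGF receptor, had 2.83 ± 0.746 FPKM. These neighbours did not differ beyond their spread, and Fgfr4 was above Fgf7 in 15 of the 24 libraries. Fgfbp1 (chr5:43978858-43981799), a secreted carrier that frees FGFs from the matrix, had 1.75 ± 1.94 FPKM, so that its SD exceeded its mean. Its means were 2.43 and 3.66 FPKM in Cre- and Cre+ EDL muscles, and 0.428 and 0.482 FPKM in SOL muscles. Fgf6 (chr6:127015542-127024718), a ligand expressed chiefly in skeletal muscle, had 1.30 ± 0.497 FPKM.

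Fgf2 (chr3:37348653-37404830), the classical SC mitogen, had 0.837 ± 0.393 FPKM from 11 to 59 counts per library. Hgf (chr5:16553901-16619439) was at the limit, with 0 to 7 counts per library, 3 or fewer in 17 of 24, and 0.0265 ± 0.0183 FPKM. It did not pass the filter on low counts, so that 9 of the 10 members were tested and no change of Hgf could be detected at this depth. The order held in every library only at the steps from Spry1 to Fgfr4 and from Fgf2 to Hgf.

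**Figure D1:**
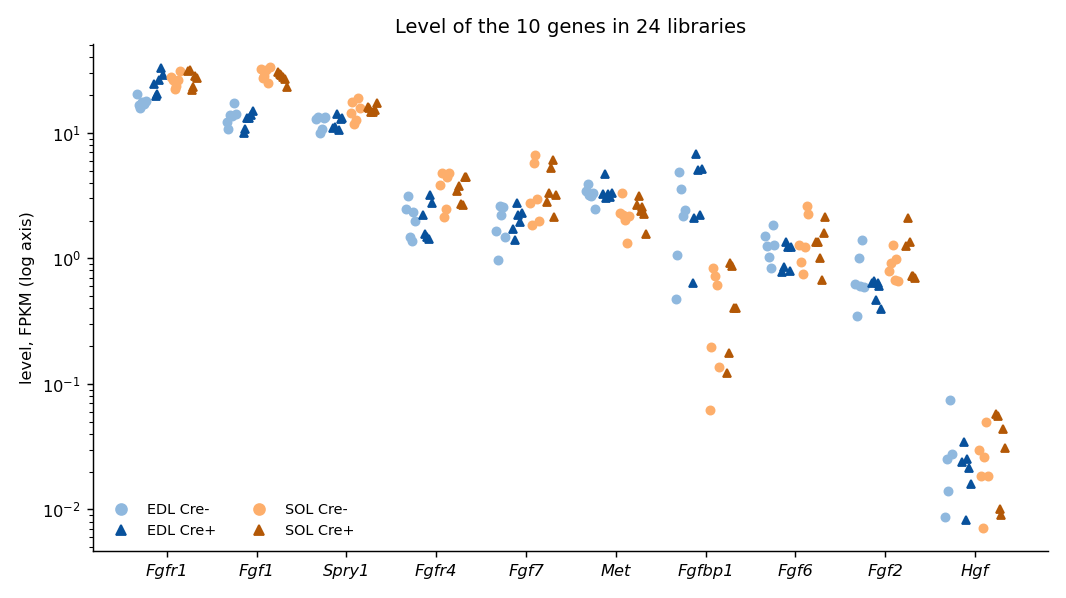
Level of each member in each library in FPKM on a log axis, with points coloured by muscle and genotype; 1 library with 0 Hgf counts is not drawn. Fgfr1, Fgf1 and Spry1 lie above all others in every library, and Hgf lies below 0.1 FPKM throughout.

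Some members overlap other gene models in the annotation. Fgfr1 overlaps Gm16159 on the opposite strand over 164 exon bases, and Gm16159 itself had 6 to 27 counts, against 3048 to 8733 for Fgfr1. Spry1 overlaps Gm42922, on the opposite strand, over 710 bases, and Fgf2 and Hgf overlap the same-strand models Gm43439 and Gm43489 over 255 and 484 bases. Whether the counting used the strand was not stated, and how many reads these overlaps could affect was not tested.

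The question of the study was how OSKM in myofibers changes the niche of SCs. For EDL muscles after 2.5 days of Dox, 3 of the 9 tested members were downregulated in Cre+ muscles and none was upregulated. They were the ligand Fgf6, the receptor Fgfr4 and the feedback inhibitor Spry1, at 0.473, 0.537 and 0.674 of the Cre- level. Over all 15372 genes, 24% were called in this comparison, 10.2% lower and 13.8% higher. A call here is a Benjamini-Hochberg adjusted p under 0.05 in edgeR's quasi-likelihood test, together with a log2 change over 0.5 in either direction. The study set these thresholds on pairwise tests by DESeq2. The median log2 fold change of the tested members was -0.22, beside -0.05 over all genes.

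Fgf6 had 1.92 and 1.67 CPM in the Cre- EDL libraries of 2.5 days and 0.839 and 0.861 in the Cre+ libraries, with library sizes scaled by TMM, the scale on which the test compares libraries. Both Cre+ libraries lay below both Cre- libraries, and they differed from each other by little. The group means were 1.79 ± 0.177 and 0.850 ± 0.0152 (SD, n = 2), a log2 fold change of -1.08 (SE 0.31, edgeR quasi-likelihood test, adjusted p = 0.022). The counts behind these values were low, between 35 and 129 per library over the series.

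Fgfr4 had 8.06 and 10.7 TMM-scaled CPM in Cre- muscles and 6.04 and 4.06 in Cre+ muscles. The groups did not overlap, although the libraries within each differed by about as much as the gap between the groups. The log2 fold change was -0.90 (SE 0.20, edgeR quasi-likelihood test, adjusted p = 0.00494).

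Spry1 had 33.3 and 35.9 TMM-scaled CPM in Cre- muscles and 23.9 and 22.9 in Cre+ muscles. Its replicates were close together and the groups clearly apart. The log2 fold change was -0.57 (SE 0.14, edgeR quasi-likelihood test, adjusted p = 0.00884). Spry1 is also expressed in vessels, and the endothelial markers moved with it: 4 of 6 were called lower, among them Pecam1 and Cdh5, with a median log2 fold change of -0.58. Summed over the list they had 87.3 to 102.7 FPKM in Cre- and 77.9 to 80.0 FPKM in Cre+ libraries, and their part in the change of Spry1 was not tested.

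Fgf1 was close to a call, with 49.5 and 45.3 TMM-scaled CPM in Cre- and 33.8 and 34.7 in Cre+ EDL muscles. Its log2 fold change of -0.48 (SE 0.15, edgeR quasi-likelihood test, adjusted p = 0.0303) was under the fold threshold. The receptors Fgfr1 (-0.06) and Met (-0.22) and the ligands Fgf2 (0.08) and Fgf7 (-0.06) were not called, nor was Fgfbp1, with 0.47 on the log2 scale and an SE of 0.66.

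The markers of SCs themselves were not called in this comparison, 0 of 6, with a median log2 fold change of -0.24. Their summed level was 20.3 to 20.6 FPKM in Cre- and 16.7 to 26.8 FPKM in Cre+ libraries. Fast fibre markers were lower, 2 of 4 called with a median of -0.89, and their summed level was 28787 to 32729 FPKM in Cre- and 18401 to 23294 FPKM in Cre+ libraries. Their part in the changes of Fgf6, Fgfr4 and Spry1 was not tested.

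These calls rested on few libraries. The call of Fgf6 was lost without any one of the 4 libraries, with adjusted p up to 0.112 and log2 fold changes of -1.18 to -0.97. Those of Fgfr4 and Spry1 were lost without Cre- replicate 2 or without Cre+ replicate 2, in which case 0 members were called, and over all 4 such fits their log2 fold changes were -1.22 to -0.63 and -0.62 to -0.52. With library size alone as scaling, which shifted the median of all genes to 0.28 on the log2 scale, Fgf6 (-0.75, adjusted p = 0.0676 by edgeR) and Spry1 (-0.24, adjusted p = 0.172) were not called, and Fgfr4 was (-0.57, adjusted p = 0.0365). With DESeq2 on the 4 libraries alone, the kind of pairwise comparison the study made, Fgfr4 and Spry1 were called and Fgf6 was not (adjusted p = 0.0751). With edgeR on the same 4 libraries Spry1 was called, and Fgf6 and Fgfr4 were not.

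**Figure D2:**
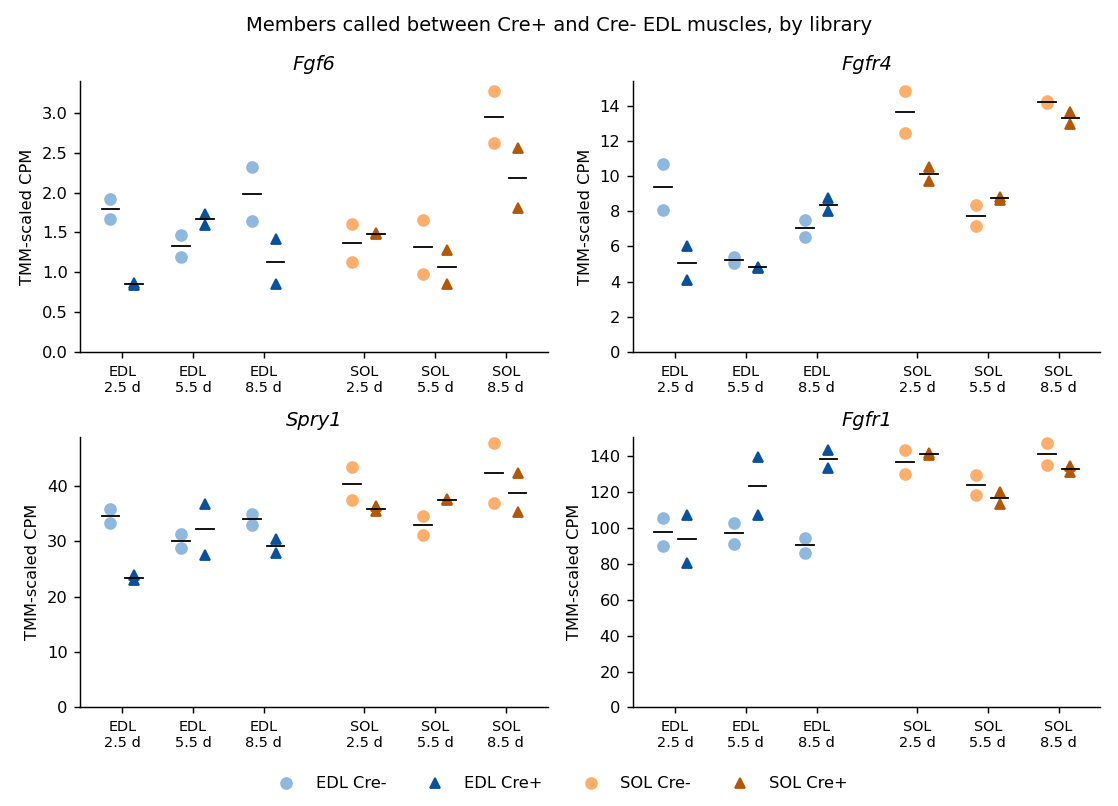
TMM-scaled CPM of Fgf6, Fgfr4, Spry1 and Fgfr1 in each library (points), with the mean of the 2 libraries of each group (black bar), by muscle, genotype and day. In EDL muscles at 2.5 days the Cre+ points of Fgf6, Fgfr4 and Spry1 lie below the Cre- points, and at 8.5 days the Cre+ points of Fgfr1, 143.4 and 133.3, lie above the Cre- points.

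After 8.5 days a different member changed in EDL muscles. The receptor Fgfr1 was upregulated to 1.55 times the Cre- level, and it was the only one of the 9 tested members called, where 14.1% of all genes were, 7.63% being higher. Fgfr1 had 86.2 and 94.6 TMM-scaled CPM in Cre- libraries and 143.4 and 133.3 in Cre+ libraries. Both Cre+ libraries stood well above both Cre- libraries and above the EDL libraries of 2.5 days, which ranged from 80.7 to 107.3. The log2 fold change was 0.64 (SE 0.14, edgeR quasi-likelihood test, adjusted p = 0.00925), with a range of 0.58 to 0.82 over all alternatives. The call was lost without Cre- replicate 1 or Cre+ replicate 1, and also with edgeR on the 4 libraries of the comparison alone.

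The members lower at 2.5 days did not pass the test at 8.5 days. Fgf6 had 2.32 and 1.65 TMM-scaled CPM in Cre- and 0.854 and 1.41 in Cre+ EDL muscles. Its Cre+ values were still below the Cre- values, with a log2 fold change of -0.79 (edgeR quasi-likelihood test, adjusted p = 0.104). Fgfr4 had 7.52 and 6.53 in Cre- and 8.72 and 8.02 in Cre+ libraries, on the same scale, so that the order of the groups was the opposite of that at 2.5 days (log2 fold change 0.27, adjusted p = 0.388). For Spry1 the values were 33.0 and 35.0 against 27.8 and 30.4, a log2 fold change of -0.20.

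Fgf2 had the lowest log2 fold change of the members at 8.5 days, -1.16 (SE 0.46, edgeR quasi-likelihood test, adjusted p = 0.112). It rested on a single library, Cre- replicate 1, with 0.990 TMM-scaled CPM beside 0.431 in replicate 2 and 0.361 and 0.255 in the Cre+ libraries. Without Cre- replicate 2 Fgf2 was called at -1.65, and without Cre- replicate 1 its log2 fold change was -0.45. Of the SC markers 0 of 6, of the fibroblast markers 0 of 6 and of the endothelial markers 0 of 6 were called. The summed SC markers were 19.9 to 21.6 FPKM in Cre- and 24.2 to 25.7 FPKM in Cre+ libraries. Of the fast fibre markers 1 of 4 was called lower, with a median of -0.43 and sums of 26785 to 33845 FPKM in Cre- and 20959 to 22822 FPKM in Cre+ libraries. The summed fibroblast markers were 1007 to 1009 FPKM in Cre- and 1245 to 1557 FPKM in Cre+ muscles, while the summed tendon markers, 0 of 4 called with a median log2 fold change of 0.45, were 468.2 to 578 FPKM and 789.2 to 911.6 FPKM, without overlap. Liver transcripts were higher in the Cre- EDL libraries of this day, 4.36 to 6.05 FPKM in sum against 0.538 to 0.748 FPKM in Cre+ libraries, with 3 of 5 called lower in Cre+ muscles. The part of these cells and transcripts in the difference of Fgfr1 was not tested.

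A direct test of the change at 8.5 days minus that at 2.5 days called none of the 9 members, and 0% of all genes, in EDL muscles. An unadjusted p under 0.05 was reached by 2 members, beside 9.56% of all genes. Fgfr4 had the larger difference, 1.17 on the log2 scale (SE 0.28, unadjusted p = 0.00108, adjusted p = 0.217 by edgeR), and DESeq2 called it. Fgfr1 differed by 0.70 (adjusted p = 0.301). Without Cre+ replicate 1 of 2.5 days both were called.

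In SOL muscles no member was called at 2.5 or 8.5 days, by edgeR or by DESeq2, and no member had an unadjusted p under 0.05. Over all genes 0.384% were called at 2.5 days and 0.631% at 8.5 days, and 13.4% and 6.6% had an unadjusted p under 0.05. Fgfr4 had 12.4 and 14.9 TMM-scaled CPM in Cre- and 9.74 and 10.5 in Cre+ SOL libraries of 2.5 days, with a log2 fold change of -0.41 (SE 0.19, edgeR quasi-likelihood test, adjusted p = 0.382). Both Cre+ libraries were below both Cre- libraries, as in EDL muscles. Fgf6, by contrast, had 1.61 and 1.13 in Cre- and 1.48 and 1.49 in Cre+ libraries, within the range of the controls. Spry1 changed by -0.16 and Fgfr1 by 0.06 on the log2 scale, neither past the test. Fgf2 had the largest change of the members, upwards by 0.81 (SE 0.44, edgeR quasi-likelihood test, adjusted p = 0.456). Its Cre+ libraries, with 0.781 and 1.29, lay above its Cre- libraries, with 0.563 and 0.627, on 21 to 59 counts.

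At 8.5 days Fgfr1 in SOL muscles had a log2 fold change of -0.08 (adjusted p = 0.999 by edgeR), and Fgf6 of -0.43. The Cre- SOL libraries of this day held liver transcripts, with 5 of 5 markers called lower in Cre+ muscles and summed levels of 15.05 and 80.18 FPKM against at most 0.878 FPKM, and their part in the member values was not tested.

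The difference between the muscles was tested as the EDL change minus the SOL change. None of the 9 members was called at 2.5 days, where 4.25% of all genes were, or at 8.5 days, where 0.592% were. An unadjusted p under 0.05 was reached by 1 member on each day, beside 21% and 11.2% of all genes. At 2.5 days it was Fgf6, with a difference of -1.21 on the log2 scale (SE 0.44, edgeR quasi-likelihood test, adjusted p = 0.137). At 8.5 days it was Fgfr1, with a difference of 0.72 (SE 0.20, adjusted p = 0.173), which DESeq2 called. The larger changes in EDL muscles were thus not shown to differ from those in SOL muscles by edgeR.

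**Figure D3:**
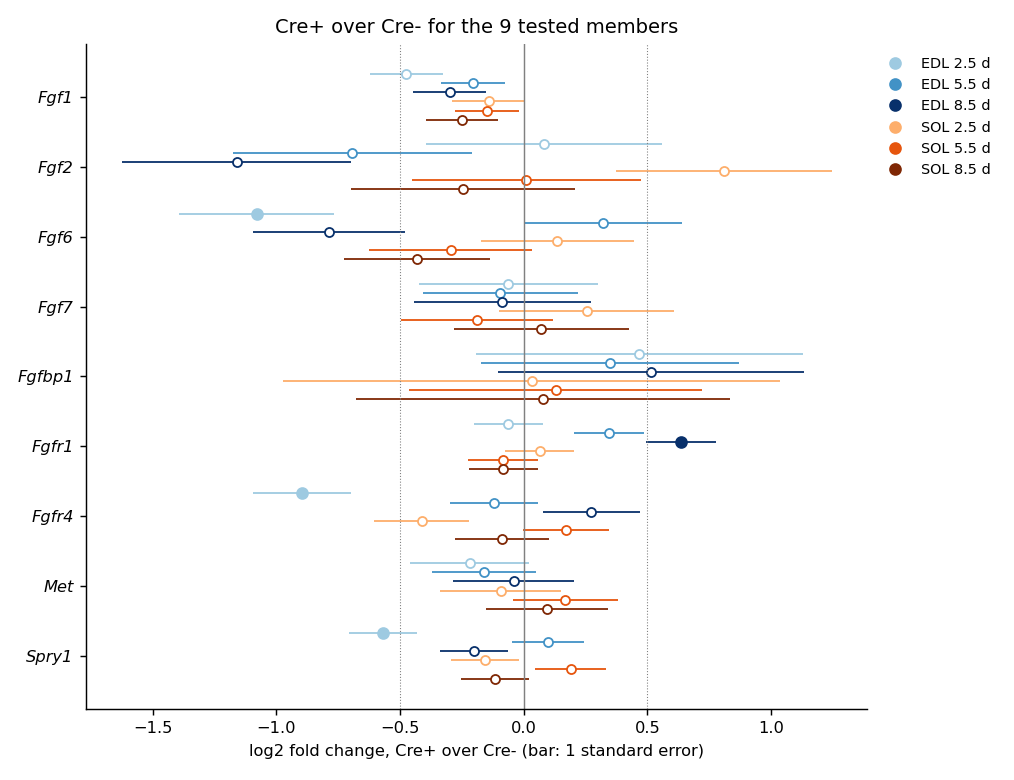
Log2 fold change, Cre+ over Cre-, of the 9 tested members in EDL and SOL muscles at each day, with bars of 1 standard error; filled circles are called and open circles are not, and dotted lines mark the threshold of 0.5. The filled points are Fgf6, Fgfr4 and Spry1 in EDL muscles at 2.5 days and Fgfr1 in EDL muscles at 8.5 days.

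More of these genes differed between the muscles themselves. For Cre- mice, with 2.5 and 8.5 days averaged, 5 of the 9 tested members differed between EDL and SOL muscles, where 21.9% of all genes did. The ligand Fgf1 and the receptors Fgfr1 and Fgfr4 were lower in EDL muscles, and the receptor Met and the carrier Fgfbp1 were higher there.

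Fgf1 had 49.5 and 45.3 TMM-scaled CPM in Cre- EDL libraries of 2.5 days and 69.3 and 57.6 at 8.5 days, against 130.1, 104.6, 98.95 and 123.7 in Cre- SOL libraries. All SOL values were above all EDL values. The log2 difference, EDL over SOL, was -1.04 (SE 0.11, edgeR quasi-likelihood test, adjusted p = 1e-05), or 0.487 of the SOL level. In FPKM the groups had 13.6 ± 2.90 and 29.4 ± 4.07 (SD, n = 4).

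Fgfbp1 showed the opposite and the widest difference, 6.40 times higher in EDL muscles. In Cre- EDL libraries it had 0.615, 1.43, 2.77 and 3.17 TMM-scaled CPM, and in Cre- SOL libraries 0.0805, 0.241, 0.773 and 0.160. The ranges overlapped, since the highest SOL library lay above the lowest EDL library, and the lowest SOL value rests on 3 counts. The log2 difference was 2.68 (SE 0.55, edgeR quasi-likelihood test, adjusted p = 0.00247). Over all alternatives, fits without single libraries among them, it ranged from 2.31 to 3.43.

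Of the receptors, Fgfr4 was lower in EDL muscles by a log2 difference of -0.76 (SE 0.14, edgeR quasi-likelihood test, adjusted p = 0.0011) and Fgfr1 by -0.54 (SE 0.10, adjusted p = 0.00112). In FPKM, Fgfr4 had 2.49 ± 0.486 in EDL and 4.47 ± 0.445 in SOL muscles, and Fgfr1 17.9 ± 1.64 and 27.9 ± 2.23 (SD, n = 4). Met, the receptor of HGF, went the other way, with a log2 difference of 0.66 (SE 0.17, adjusted p = 0.0114). Its mean was 3.28 ± 0.586 FPKM in EDL muscles against 2.275 ± 0.800 in SOL muscles (SD, n = 4), with overlapping ranges. The calls of Fgf1, Fgfr4 and Fgfbp1 were kept without each library in turn, in both genotypes. That of Met was lost without SOL replicate 1 of 2.5 days and that of Fgfr1 without EDL replicate 2 of 2.5 days. When libraries were scaled by their totals only, all 5 kept their direction and their call.

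For Cre+ mice 7 of 9 members differed between the muscles, beside 29.6% of all genes. Fgf1 (-1.23), Fgfr4 (-0.82), Met (0.53) and Fgfbp1 (3.11) had the directions seen in Cre- mice, on the log2 scale. Fgf2, Fgf6 and Fgf7 were called lower in EDL muscles as well, at 0.499, 0.552 and 0.607 of the SOL level. Fgf6 had 0.839, 0.861, 0.854 and 1.41 TMM-scaled CPM in Cre+ EDL and 1.48, 1.49, 1.81 and 2.56 in Cre+ SOL libraries, with no overlap. Fgfr1 was at -0.25 (adjusted p = 0.0605 by edgeR), and Spry1, at -0.50 with an adjusted p of 0.00135, lay just under the fold threshold. Leaving out single libraries ended the calls of Fgf2, Fgf7 and Met in 5, 6 and 4 of 8 cases. Over all alternatives their log2 differences ranged from -1.16 to -0.80, from -0.87 to -0.53 and from 0.41 to 0.66.

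The tissues also differed in markers of their cells. In Cre- mice, 5 of 6 SC markers were lower in EDL than in SOL muscles. Of Myod1 and Myog, listed as markers of activated SCs, 1 was higher and 1 lower. The sum of Myod1 and Myog was 26.6 to 31.5 FPKM in EDL and 13 to 15.8 FPKM in SOL libraries of 2.5 days, and 22.3 to 29.1 and 17.7 to 27.1 FPKM at 8.5 days. Over all libraries they had means of 16.3 and 7.29 FPKM, beside 1.38 FPKM for Pax7. Which cells of the whole muscle held these transcripts was not tested. Fibroblast markers were higher in EDL muscles for 2 of 6, tendon markers were 1 higher and 1 lower of 4, and fibroblast sums were 888.7 to 1083 against 414.8 to 438.9 FPKM at 2.5 days and 1007 to 1009 against 772.8 to 959.7 FPKM at 8.5 days. Lower in EDL muscles were also 4 of 4 slow fibre markers, 4 of 4 adipocyte markers and 1 of 6 endothelial markers, while 4 of 4 fast fibre and 4 of 4 Schwann cell markers were higher. The Cre- SOL libraries of 8.5 days held liver transcripts at 15.05 and 80.18 FPKM in sum, against 4.36 to 6.05 FPKM in EDL libraries. Neutrophil sums were 1.44 to 21.8 FPKM in these SOL libraries and 1.26 to 5.8 FPKM in the EDL libraries. In Cre+ mice 4 of 6 SC, 5 of 6 endothelial, 3 of 4 adipocyte and 4 of 4 slow fibre markers were lower in EDL muscles, and 2 of 4 fast fibre and 1 of 6 fibroblast markers were higher. The summed SC markers of Cre+ mice were 16.7 to 26.8 FPKM in EDL against 29.8 to 31.2 FPKM in SOL libraries of 2.5 days, and 24.2 to 25.7 against 30.2 to 30.7 FPKM at 8.5 days. The part of these cells and transcripts in the differences of the members between muscles was not tested in either genotype.

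**Figure D4:**
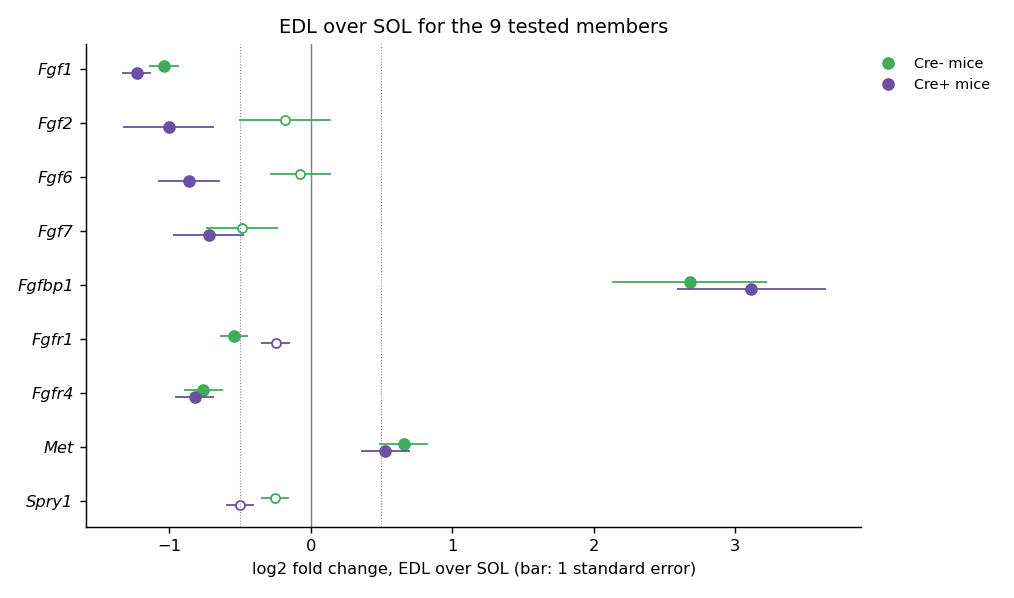
Log2 difference, EDL over SOL, of the 9 tested members in Cre- and Cre+ mice (2.5 and 8.5 days averaged), with bars of 1 standard error; filled circles are called and open circles are not. Fgf1 and Fgfr4 lie to the left and Met and Fgfbp1 to the right in both genotypes.

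The libraries of 5.5 days were tested in a fit of all 24 libraries. None of the 9 members was called between Cre+ and Cre- muscles by edgeR or DESeq2, in EDL (0.304% of all genes called) or SOL muscles (0%). Fgfr1 in EDL muscles was the one member with an unadjusted p under 0.05 (0.0263, adjusted p = 0.476), beside 8.44% of all genes in EDL and 3.86% in SOL muscles. It had 91.3 and 103.1 TMM-scaled CPM in Cre- and 107.4 and 139.5 in Cre+ libraries, where the lower Cre+ value came from replicate 1, the library with 64 counts of Pou5f1. Fgf6 had 1.46 and 1.20 in Cre- and 1.74 and 1.59 in Cre+ EDL libraries, so the lower level of 2.5 days was not seen.

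Within Cre- mice the 5.5-day muscles stood apart from those of the other days for some members, a comparison added after the data were seen. In SOL muscles 3 of 9 members were called against the mean of 2.5 and 8.5 days, beside 6.54% of all genes. Fgf7 had 16.4 and 19.3 TMM-scaled CPM at 5.5 days and between 4.85 and 8.10 on the other days, a log2 difference of 1.48 (SE 0.26, edgeR quasi-likelihood test, adjusted p = 0.00483). The Cre+ SOL libraries of 5.5 days, with 14.4 and 16.9, were likewise above the other days, and 1 of them lay below both Cre- libraries. Fgfr4 was lower (-0.85, adjusted p = 0.00623) and Fgfbp1 higher (1.93, adjusted p = 0.0459).

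In EDL muscles 2 of 9 members were called, beside 5.74% of all genes, with the same directions. Fgfr4 was lower by a log2 difference of -0.64 (SE 0.16, edgeR quasi-likelihood test, adjusted p = 0.0222). Fgfbp1 had 7.04 and 5.16 TMM-scaled CPM against 0.615 to 3.17 on the other days, a log2 difference of 1.81 (SE 0.45, adjusted p = 0.0232). Both calls were lost without either library of 5.5 days, that of Fgfr4 also without replicate 2 and that of Fgfbp1 without replicate 1 of 2.5 days. In SOL muscles all 3 calls were lost without replicate 1 of 5.5 days, and that of Fgfbp1 was lost in 5 of 6 such fits, kept only without replicate 1 of 8.5 days, and lost with library size alone (1.83, adjusted p = 0.0527 by edgeR). Of the SC markers 1 of 6 was lower in EDL and 4 of 6 in SOL muscles, and of the fibroblast markers 2 of 6 in each. Summed endothelial markers were 70.9 to 73.6 FPKM in EDL muscles, against 87.3 to 102.7 at 2.5 and 93.6 to 108.4 at 8.5 days. Fibroblast sums there were 364.8 to 422.6 FPKM, against 888.7 to 1083 and 1007 to 1009. For SOL muscles the endothelial sums were 83.2 to 102.8 FPKM, against 115.2 to 138.4 and 120 to 160.1. With scaling by library total, as in FPKM, the median log2 difference of all genes was -0.13 in EDL and -0.11 in SOL muscles. The part of these cells in the member differences was not tested. The day of Dox and anything else that differed between collections cannot be told apart.

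Across the 24 libraries some members had patterns close to those of other genes, given as Pearson's r of log2(FPKM + 0.5) among 11330 genes, as a description of libraries that share muscle and day. Fgf1 was most like Myoz2 (0.974), Pde8a (0.972) and Ldhb (0.971), and Fgfr4 like Kcne1l (0.945). Met was most like Vps50 (0.925) and Spry1 like the endothelial gene Emcn (0.916). Fgfr1 was most like Plin2 (0.900). Fgfbp1 (Calr3, 0.888), Fgf7 (Swi5, 0.857), Fgf2 (Chpt1, 0.784) and Fgf6 (Relt, 0.782) had looser neighbours. Among the members, Fgfr4 and Spry1 had an r of 0.853 and Fgfr4 and Fgfbp1 one of -0.789. The neighbours depended on the libraries used: over the 16 libraries of 2.5 and 8.5 days, 1 of the 3 closest genes was shared for Fgf1, Fgf6, Met and Fgfr1 and 0 of 3 for the others.

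The rest of the FGF and HGF pathways was described by lists of genes with named roles. Among the target genes of FGF signalling, the ERK phosphatase Dusp6, the transcription factor Etv5 and the inhibitor Spry2, close kin of Spry1, were downregulated in EDL muscles at 2.5 days, and Il17rd, a membrane inhibitor of FGF receptors, was upregulated. This makes 3 lower and 1 higher of 15 tested, where 10.2% and 13.8% of all genes were, with a median log2 fold change of -0.27. The share of the list called in either direction is near the 24% of all genes. Etv5 had 23.2 and 26.8 TMM-scaled CPM in Cre- and 15.5 and 10.5 in Cre+ libraries (log2 fold change -0.95, SE 0.17, edgeR quasi-likelihood test, adjusted p = 0.00139). Dusp6 had 16.6 and 19.7 against 10.1 and 9.49 (-0.90, adjusted p = 0.0235), and Spry2 10.7 and 10.7 against 7.54 and 6.81 (-0.58, adjusted p = 0.0407). Dusp6, Spry2 and Spry4 are named here because of their values. Spry4, with -0.62, had an adjusted p of 0.058.

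At 8.5 days only Etv5 (-0.55) and Il17rd (0.84) of this list were called, 1 lower and 1 higher of 15, a share near the 14.1% of all genes, with a median of -0.10. Dusp6 (-0.11) and Spry2 (-0.10) were not called on that day.

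**Figure D5:**
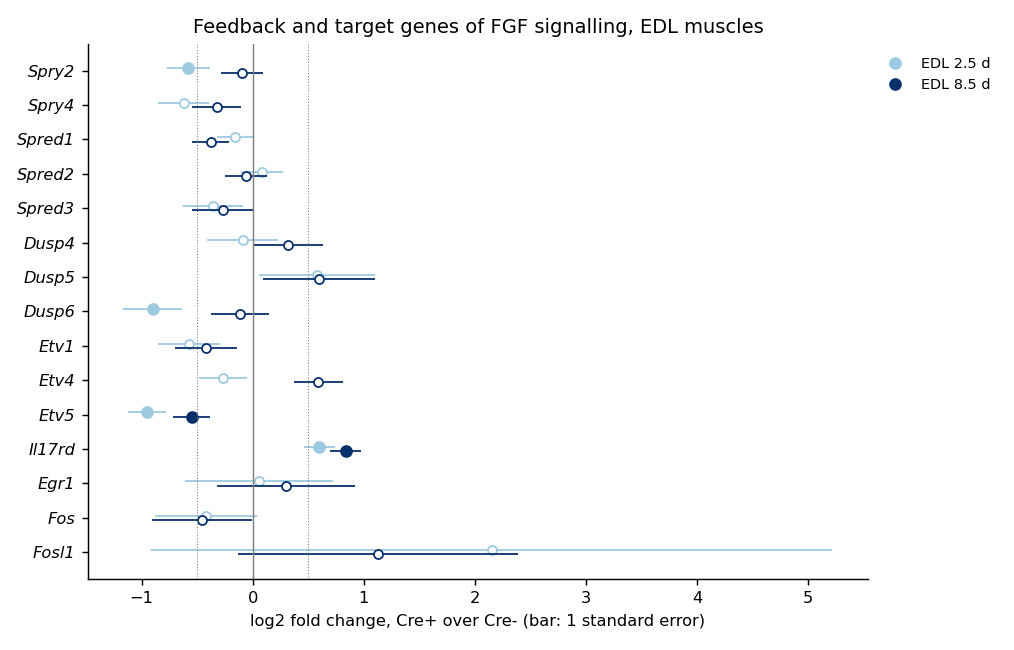
Log2 fold change, Cre+ over Cre-, of 15 feedback and target genes of FGF signalling in EDL muscles at 2.5 and 8.5 days, with bars of 1 standard error; filled circles are called and open circles are not. Etv5, Dusp6 and Spry2 are the filled points to the left at 2.5 days, and Il17rd is to the right on both days.

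Of the other FGF ligands 8 of 18 passed the filter on low counts. Fgf18, named for its value, was the 1 of these 8 called in EDL muscles at 2.5 days, where 24% of all genes were, with 7.32 and 31.7 TMM-scaled CPM in Cre+ and 2.08 and 1.59 in Cre- libraries (log2 fold change 3.39, SE 0.57, edgeR quasi-likelihood test, adjusted p = 0.000933). Its Cre+ replicates were far apart. None of the 8 was called at 8.5 days, where 14.1% of all genes were. The most abundant, Fgf13, an intracellular relative of the FGFs, had log2 fold changes of -0.32 and -0.14. The list medians were -0.36 and -0.07.

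Of the 5 other receptors and co-receptors, all tested, 1 was higher and 1 lower on each day, beside 24% and 14.1% of all genes called. Fgfrl1, an FGF-binding receptor without a kinase domain, was upregulated on both days. It had 87.8 and 68.6 TMM-scaled CPM in Cre- and 213.7 and 182.7 in Cre+ EDL libraries of 2.5 days, and 79.2 and 74.1 against 147.6 and 146.2 at 8.5 days, log2 fold changes of 1.33 and 0.96. Fgfr3 was downregulated on both days (-0.65 and -0.80). Of 12 carrier and heparan sulphate genes 3 rose and none fell at 2.5 days, with a median of 0.06 and beside 24% of all genes called. At 8.5 days 2 rose and 1 fell, with a median of 0.19 and beside 14.1% of all genes. Ext1, an enzyme that builds heparan sulphate chains, was called on both days (0.88 and 0.64).

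For HGF, whose own transcript was too scarce to test, 9 of 14 genes tied to its activation were tested, with 2 higher and 1 lower on each day, beside 24% and 14.1% of all genes called, and a median of -0.24 on both. Hpn, a membrane protease that can activate pro-HGF, was downregulated (-1.75 and -1.15 on the log2 scale). It had 11.6 and 11.99 TMM-scaled CPM in Cre- and 3.98 and 3.07 in Cre+ EDL libraries of 2.5 days. Nos1, the muscle nitric oxide synthase, was upregulated (0.67 and 0.75). Mst1r, a receptor related to MET that binds the HGF-like protein, was upregulated by 3.15 and 1.85.

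Of the adaptors and the ERK cascade 1 of 19 was higher at 2.5 days, where 24% of all genes were called. At 8.5 days 2 were higher and 1 lower, near the 14.1% of all genes, and the medians were -0.05 and -0.04. Nras was the one called on both days (0.80 and 0.64). In SOL muscles no gene of these lists was called at 2.5 days, and at 8.5 days only Nos1 was (1.36, SE 0.22, edgeR quasi-likelihood test, adjusted p = 0.0135).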

How the data were processed

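Poly(A) RNA of 24 whole-muscle samples was sequenced as stranded single-end reads. Reads were mapped to mm10 by the authors (STAR 2.5.3a), who used HOMER to count uniquely mapped reads per gene over RefSeq exons. What they deposited are raw counts per library, not normalized. FPKM was computed here from counts, exon length and library total, so marker sums in FPKM were not on the TMM scale of the tests. Members and gene lists were chosen with earlier results of these data known. edgeR 4.0.16 in R 4.3.3 was run by its quasi-likelihood test with TMM and the low-count filter (minimum 10), with one mean per group, on 16 libraries (15372 genes) for 2.5 and 8.5 days and on 24 libraries (15478 genes) for 5.5 days, and p-values were adjusted by Benjamini-Hochberg over all genes. The common biological coefficient of variation was 0.174. The spread of each gene was shared by all groups, although replicates did not vary alike. Measured against counting error, the mean chi-square per gene between replicates was 146.6 in Cre+ EDL muscles of 2.5 days. It was 138.6 in Cre- EDL muscles of 8.5 days and 26.39 to 74.63 in the other groups. Permuting 2 against 2 libraries exactly gives no two-sided p below 0.333. DESeq2 1.42.0, other scalings, filters and fits, blocking on the replicate number, and omitting single libraries were alternatives. On data simulated for the EDL comparison of 2.5 days (15372 genes, 200 changed), edgeR recovered 54 of 100 genes changed 2-fold and 92 of 100 changed 4-fold, with 12 others called. DESeq2 recovered 68 and 97 of 100, with 36 others. For the difference between muscles at 2.5 days edgeR recovered 26 and 85 of 100, with 6 others, and DESeq2 41 and 90, with 25 others. In the simulated SOL comparison of 8.5 days, with no gene changed, edgeR called 0 genes and DESeq2 5. Changed genes were drawn only above a limit on mean CPM, which left out genes as scarce as Fgf2. Each simulated gene had the same spread in every group, and fewer genes changed than the 24% called in the data. The rates therefore need not hold for the real comparisons.

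List genes were named by rule where called in both EDL comparisons, Fgf13 by its level. Dusp6, Spry2, Spry4 and Fgf18 were named after their values were seen. To see whether equal replicate numbers pair libraries, departures from each group's mean were correlated over genes. The correlation was 0.123 to 0.504 for EDL and SOL libraries (6 of 6 pairs over 0.1) and -0.241 to 0.0905 for Cre+ and Cre- libraries. The main tests, those between the muscles among them, used no pairing and treated all libraries as independent. Only in an alternative fit were the muscles taken as paired, a pairing drawn from the data.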

Additional observations from a re-analysis of the deposited data

Results flagged for a closer look

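Of the 68 tested genes in the lists around the members, 2 named above changed differently with Cre in the EDL and SOL muscles at 2.5 days, by a test of the difference itself (edgeR quasi-likelihood test), where 4.25% of all genes did. For Mst1r, the receptor related to MET, the EDL change exceeded the SOL change by 1.97 on the log2 scale (SE 0.48, adjusted p = 0.0394). It had 4.30 and 2.62 TMM-scaled CPM in Cre- and 22.7 and 39.4 in Cre+ EDL libraries, and 3.27 and 1.98 against 6.11 and 5.64 in SOL libraries.

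For Etv5, the transcription factor downstream of FGF signalling, the EDL change minus the SOL change was -1.19 (SE 0.24, adjusted p = 0.0184 by edgeR). It had 23.2 and 26.8 TMM-scaled CPM in Cre- and 15.5 and 10.5 in Cre+ EDL libraries, and 13.7 and 14.5 against 16.3 and 16.6 in SOL libraries, where its log2 fold change was 0.24 (adjusted p = 0.587). Groups of 2 libraries are too small for a search for outlying samples.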

How the results depend on the processing

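The 21 called changes of members were refitted 158 times with another setting, which lost the call 7 times, and 142 times without a single library, which lost it 40 times. None of them changed its sign in any of these fits. In EDL muscles at 2.5 days, 3 members were called, but 1 with library size alone, 1 with edgeR and 2 with DESeq2 on the 4 libraries of the comparison, 1 with a threshold of 1 on the log2 scale, and 0 to 2 without single libraries. At 8.5 days the 1 call became 0 with edgeR on 4 libraries, 0 with the threshold of 1, and 0 to 2 without single libraries. For EDL over SOL muscles the threshold of 1 left 2 of 5 calls in Cre- and 3 of 7 in Cre+ mice, and leaving out single libraries gave 4 to 5 and 4 to 8. DESeq2 called 1 member for the difference between muscles at 8.5 days and 1 for the difference between days in EDL muscles, and leaving out single libraries gave 0 to 2 for the latter. For Cre- muscles at 5.5 days against the other days, the 2 calls in EDL muscles became 1 with at least 10 counts in every library (Fgfbp1 then was not tested), 1 with the threshold of 1, and 0 to 3 without single libraries, and the 3 calls in SOL muscles became 0 to 3. With a replicate block, 3 members were called in EDL muscles at 2.5 days, 1 at 8.5 days, 5 for EDL over SOL muscles in Cre- and 7 in Cre+ mice, and a block on the muscles of a mouse changed no member's call. The causes of these shifts were not tested. Where leaving out a library left 1 in a group, that library was assumed to vary like the other groups. By median count over the 24 libraries, Hgf (3), Fgf2 (21) and Fgfbp1 (44.5) were the lowest members. The part of depth in the spread of Fgf2 and Fgfbp1 was not tested.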
